A study of Mus musculus with 7 samples.

Results

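The genes described here mark 2 small cell populations of the liver, and accessible chromatin was examined at 5 genes of hepatic stellate cells (Lrat, Des, Pdgfrb, Col1a1 and Reln) and at 5 genes of the bile duct epithelium (Krt7, Krt19, Sox9, Epcam and Spp1). They are 10 of 22365 genes with protein-coding transcripts on the assembled chromosomes, and they were taken by name as known genes of these cells, with earlier results of the same lists known. A hotspot, a stretch in which cleavage tags cluster above background, was counted for a gene when it overlapped the gene body or the 20 kb on either side of it, referred to as the window of the gene. The windows held 31 of 60910 Benzonase hotspots, 26 of 57675 Cyanase hotspots and 23 of 72286 DNase I hotspots, which merged into 47 of 94491 regions.

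Chromatin accessibility was measured in liver of male C57BL/6 mice at 8 weeks of age. Benzonase and Cyanase, endonucleases that stay active in detergent, were applied at 0.25, 1 and 4 U to frozen pulverized tissue, 1 library at each amount, and DNase I was applied to nuclei purified from fresh liver. The deposited data are 1 list of hotspot positions (mm9) per nuclease, made after the libraries of that nuclease had been combined, at an FDR of 0% and with no tag number or score. There was therefore no spread between replicates, the number of tags in any hotspot is unknown, no test between conditions was possible, and intervals given below cover counting error only. The nuclease and the starting material changed together, so their parts in a difference between lists cannot be told apart. The livers were not sorted, so that fewer cells of a type and less accessible chromatin per cell cannot be told apart either.

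Hepatic stellate cells lie between hepatocytes and the sinusoidal endothelium, store vitamin A as retinyl esters and, when activated, become the main makers of collagen in the fibrotic liver. Cholangiocytes line the bile ducts, modify bile, and keep a keratin pattern that hepatocytes lack. Both types are far outnumbered by hepatocytes, which make up most of the mass of the organ. The tissue label was checked at the transcription start sites (TSSs) of hepatocyte genes. Each of 10 such genes, among them Alb, Ttr, Apoa1 and Fgb, had a TSS inside a hotspot of all 3 lists, beside 46.1% of all genes. Of 10 genes of muscle, nerve, kidney, lung, lens and pancreas, 0 had one in any list, where 40.9% of all genes had none.

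The lists parted at the TSSs of the member genes. Lrat and Reln lay in Benzonase and Cyanase hotspots and not in a DNase I hotspot, Des in a Cyanase hotspot only, and Sox9 in hotspots of all 3 nucleases, whereas Krt7 and Spp1 lay in none. The 250 bases of mm9 (NCBIM37) that end just before the first coding TSS of these 6 genes are given on the strand of the gene, 5′ to 3′, with each CpG dinucleotide in capitals, because they span the range of CpG content among the members. They lie at chr3:82707896-82708145 (Lrat, minus strand), chr5:21850524-21850773 (Reln, minus), chr1:75356654-75356903 (Des, plus), chr11:112643288-112643537 (Sox9, plus), chr15:101241284-101241533 (Krt7, plus) and chr5:104863887-104864136 (Spp1, plus).
Lrat: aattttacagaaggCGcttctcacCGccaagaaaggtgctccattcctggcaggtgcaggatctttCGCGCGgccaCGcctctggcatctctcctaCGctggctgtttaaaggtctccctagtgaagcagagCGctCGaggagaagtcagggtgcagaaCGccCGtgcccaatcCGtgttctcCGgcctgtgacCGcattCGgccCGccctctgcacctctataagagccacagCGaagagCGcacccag
Reln: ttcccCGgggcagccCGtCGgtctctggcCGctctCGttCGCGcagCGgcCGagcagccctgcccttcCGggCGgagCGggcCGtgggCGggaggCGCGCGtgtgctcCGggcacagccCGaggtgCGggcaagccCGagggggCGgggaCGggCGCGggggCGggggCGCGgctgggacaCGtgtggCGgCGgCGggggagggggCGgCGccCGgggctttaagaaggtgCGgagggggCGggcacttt
Des: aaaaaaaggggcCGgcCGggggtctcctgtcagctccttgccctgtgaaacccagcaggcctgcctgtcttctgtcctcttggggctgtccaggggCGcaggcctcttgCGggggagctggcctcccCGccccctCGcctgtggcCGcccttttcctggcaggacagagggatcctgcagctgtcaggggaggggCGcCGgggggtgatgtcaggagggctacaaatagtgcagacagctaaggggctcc
Sox9: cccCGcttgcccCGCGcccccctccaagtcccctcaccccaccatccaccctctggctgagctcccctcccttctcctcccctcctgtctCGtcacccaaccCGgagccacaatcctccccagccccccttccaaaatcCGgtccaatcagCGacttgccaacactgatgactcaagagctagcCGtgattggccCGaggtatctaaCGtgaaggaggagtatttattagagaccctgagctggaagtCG
Krt7: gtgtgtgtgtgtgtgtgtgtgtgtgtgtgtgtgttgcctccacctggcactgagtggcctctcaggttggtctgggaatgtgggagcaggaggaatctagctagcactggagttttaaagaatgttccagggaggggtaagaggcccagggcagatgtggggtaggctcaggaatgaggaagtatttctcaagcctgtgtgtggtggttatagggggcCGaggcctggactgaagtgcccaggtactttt
Spp1: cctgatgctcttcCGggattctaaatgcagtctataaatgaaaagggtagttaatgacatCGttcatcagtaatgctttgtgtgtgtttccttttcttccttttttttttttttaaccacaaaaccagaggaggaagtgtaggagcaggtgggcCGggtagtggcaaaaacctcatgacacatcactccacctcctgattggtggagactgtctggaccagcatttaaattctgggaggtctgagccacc

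The Reln promoter had 37 CpGs and 80% GC, more CpGs than 97.4% of 22360 promoters of the same length. The Lrat promoter had 18 CpGs, Sox9 had 11 and Des had 9, against a median of 9 over all promoters. Epcam had 8, Pdgfrb and Col1a1 had 7 each, and Krt19 had 4. At the low end, Spp1 had 3 CpGs with 44.4% GC and Krt7 had 1 CpG with 54.4% GC. Both genes with 3 CpGs or fewer had no TSS in a hotspot of any list, but so did Col1a1 and Epcam, whereas Krt19 with 4 CpGs was marked by Benzonase.

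Over all genes the share of genes with a marked TSS rose with the CpG number of the promoter at the first coding TSS. A gene counted as marked at any of its coding TSSs, not only at the first. Among genes with 0 to 3 CpGs in the promoter, which include Krt7 and Spp1, Benzonase marked 15.1%, Cyanase 14.7% and DNase I 14.2%. With 4 to 9 CpGs, the range of Des, Pdgfrb, Col1a1, Krt19 and Epcam, the shares were 49.9%, 47.5% and 39.4%. With 10 to 18 CpGs, the range of Lrat and Sox9, they were 85.1%, 82.9% and 71.2%, and with 19 to 56, the range of Reln, 91.5%, 89.5% and 74.0%.

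Known promoter motifs were searched on both strands of the same 250 bases. The GC box (GGGCGG) was present in 40.1% of all promoters and occurred 6 times at Reln, 2 times at Des and 1 time each at Lrat, Col1a1, Krt19 and Epcam. The CCAAT box (CCAAT) was present in 35.0% of all promoters and was found at Lrat, Pdgfrb, Col1a1, Sox9 and Spp1. The sequence TATAAA was present in 12.3% of all promoters and in 1 member, Spp1, where it began 218 bases before the TSS. The core of the FOXA motif (TGTTTAC) was present in 2.71% of all promoters and in none of the members.

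Lrat encodes lecithin-retinol acyltransferase, which esterifies the retinol stored by stellate cells. The gene (ENSMUSG00000028003.6) lies on the minus strand at chr3:82696501-82707895, and its single coding TSS was covered by a Benzonase hotspot at chr3:82707588-82708228 and by a Cyanase hotspot at chr3:82707585-82708208. The nearest DNase I hotspot lay 27.1 kb downstream of the TSS, at the TSS of the neighbouring gene Rbm46, where all 3 lists had a hotspot. The window of Lrat thus held 2 Benzonase, 2 Cyanase and 1 DNase I hotspots, and its own gene body held 1, 1 and 0.

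Reln encodes reelin, a secreted glycoprotein that in the liver is made by stellate cells. It is by far the longest member, at 460 kb (ENSMUSG00000042453.7, minus strand, chr5:21390272-21850523), and its window held 9 Benzonase, 6 Cyanase and 10 DNase I hotspots. Wide hotspots of Benzonase (chr5:21849499-21851481, 1983 bp) and Cyanase (chr5:21849792-21851539, 1748 bp) covered its 4 coding TSSs. A DNase I hotspot of 480 bp (chr5:21851088-21851567) overlapped the outer part of both, but it ended 565 bp upstream of the first TSS. Reln was therefore not marked by DNase I at its TSS, although the merged region there held all 3 nucleases.

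Inside Reln, 2 further intronic regions, 63.6 and 88.8 kb from the TSS, held hotspots of all 3 nucleases. A further 3 regions, 77.3, 237 and 448 kb from the TSS, held DNase I with either Benzonase or Cyanase. DNase I alone marked 4 places in the gene, 3 in introns and 1 over an exon 425 kb from the TSS, with a GC content of 36.7 to 45.2%. Benzonase and Cyanase without DNase I marked intronic regions 335 and 435 kb from the TSS, Benzonase alone marked an intron 59.8 kb from the TSS, and Benzonase alone marked a place 13.5 kb upstream. Reln was the stellate gene with the most DNase I hotspots, but per 100 kb it had 2.0, below the median of 4.24 over all genes.

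Pdgfrb, the receptor through which PDGF drives stellate cells to divide, lies on the plus strand at chr18:61204804-61244715 (ENSMUSG00000024620.5). Both of its coding TSSs were covered by a Benzonase hotspot at chr18:61204514-61204959 and a Cyanase hotspot at chr18:61204462-61205052. Introns further held hotspots of both enzymes 9.13 and 13.1 kb downstream of the TSS. In all, the window had 6 Benzonase and 4 Cyanase hotspots, all without a DNase I partner. The 2 DNase I hotspots lay elsewhere, in an intron 29.4 kb from the TSS and 41.6 kb from it, beyond the 3′ end of the gene. No region at Pdgfrb was thus shared between DNase I and either of the other enzymes.

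Des encodes desmin, an intermediate filament protein of muscle that in the rodent liver marks stellate cells. At chr1:75356904-75365154 (plus strand, ENSMUSG00000026208.9), its window held 0 Benzonase hotspots, 1 Cyanase hotspot and 0 DNase I hotspots. The Cyanase hotspot (chr1:75356656-75357119, 464 bp) covered the TSS and had a GC content of 68.8%, the highest of any Benzonase-Cyanase unique region at the stellate genes. The nearest DNase I hotspot lay 22.0 kb from the TSS and the nearest Benzonase hotspot 42.0 kb from it. The Cyanase call at Des was lost when hotspots narrower than the lower quartile of each list were left out, as was the Benzonase call at Pdgfrb.

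Col1a1, which encodes a chain of type I collagen, had no TSS inside a hotspot of any list (plus strand, chr11:94797538-94814356, ENSMUSG00000001506.9). Hotspots of Benzonase and Cyanase began 618 and 603 bp downstream of the first TSS, and ran to chr11:94798933 and chr11:94798906. Another pair lay upstream, 6.94 to 7.55 kb from the TSS. The window held 3 hotspots of each of these enzymes and 1 of DNase I, which lay 21.8 kb downstream of the TSS, beyond the gene, where all 3 lists had a hotspot. Another DNase I hotspot lay 20.1 kb from the TSS, just outside the window.

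**Figure D1:**
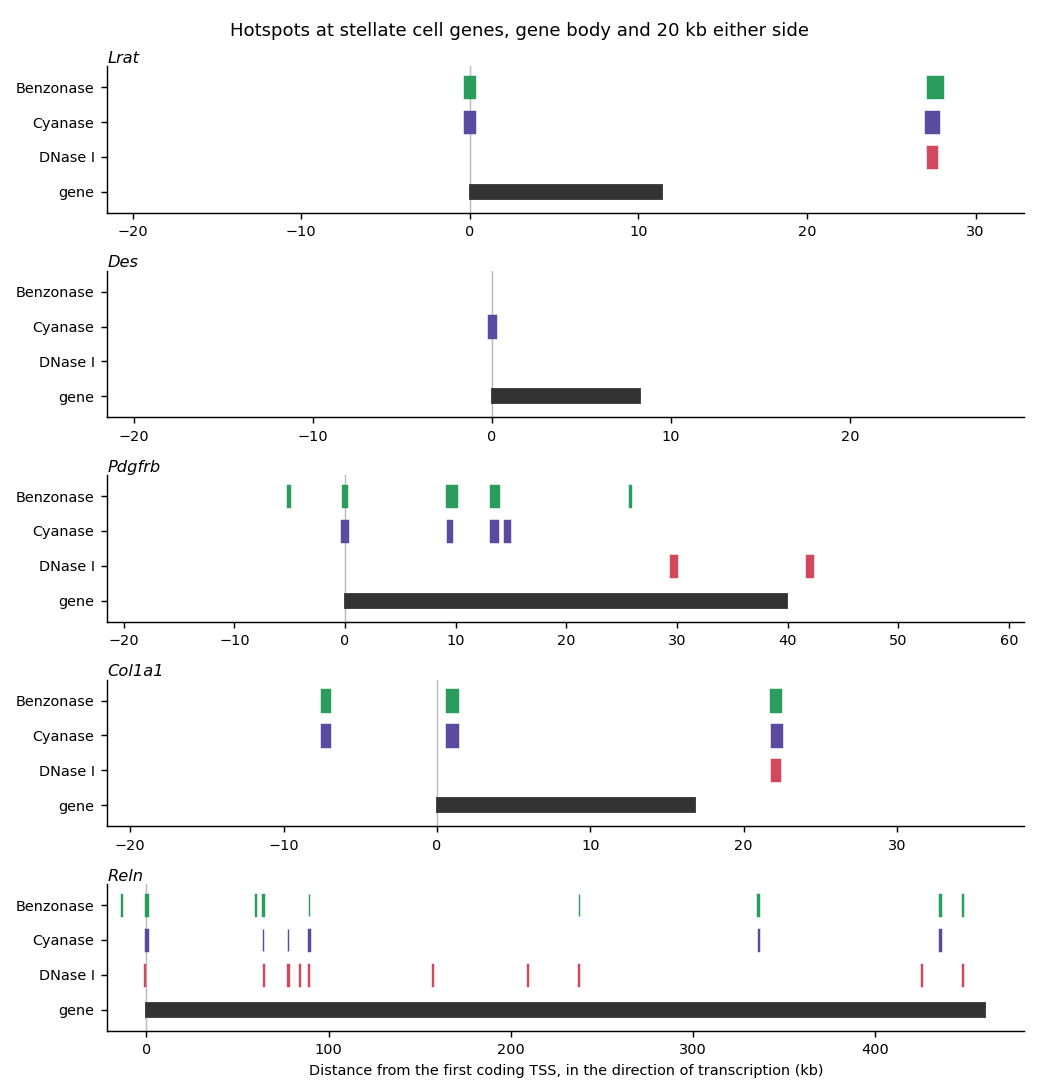
Hotspots of the 3 lists (coloured boxes, 1 row per nuclease) in the windows of the 5 stellate genes. The x axis is the distance from the first coding TSS in kb, on a scale of its own for each gene, and the black bar is the gene. Boxes of Benzonase and Cyanase sit on the TSS of Lrat, Pdgfrb and Reln and a Cyanase box sits on that of Des, while no DNase I box covers a TSS.

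Sox9 encodes a transcription factor of the bile ducts and of progenitor-like cells, which some hepatocytes next to the portal tract also make. It was the member with hotspots of all 3 nucleases at the TSS (plus strand, chr11:112643538-112649074, ENSMUSG00000000567.4). The Benzonase hotspot ran from chr11:112643018 to 112644370, the Cyanase hotspot from 112643015 to 112643770, and the DNase I hotspot from 112641924 to 112643860, so that the DNase I hotspot reached 1614 bp upstream, where the others reached 520 and 523 bp. Within the gene, Benzonase and Cyanase shared a region over an exon 2.6 kb from the TSS, with 65.3% GC and no DNase I hotspot. Downstream of the gene, 3 hotspots 5.94, 9.69 and 25.5 kb from the TSS were found by DNase I alone, with 52.1, 44.2 and 47.8% GC.

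Krt19 encodes an intermediate filament protein of cholangiocytes. Of the 3 nucleases, Benzonase alone marked its coding TSS, with a hotspot of 503 bp at chr11:100007121-100007623 (minus strand, gene at chr11:100002124-100009979, ENSMUSG00000020911.8). Benzonase also had a hotspot of its own over an exon 4.79 kb from the TSS and shared with Cyanase a region 22.0 to 22.6 kb upstream. The remaining Cyanase hotspot of the window lay at the TSS of Krt13, a neighbouring keratin gene. DNase I had 0 hotspots in the window, and its nearest one lay 70.7 kb from the TSS.

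Krt7, the keratin that pairs with Krt19 in cholangiocytes, had few hotspots (plus strand, chr15:101241474-101260744, ENSMUSG00000023039.9). A Benzonase hotspot of 283 bp lay over an exon 9.45 kb downstream of the TSS, and a DNase I hotspot of 681 bp lay 12.9 kb upstream. The window held 0 Cyanase hotspots, and the nearest one lay 35.8 kb from the TSS. The Benzonase region had 58.3% GC and the DNase I region 37.3%.

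Epcam encodes an adhesion protein of epithelia that in the adult liver is found on cholangiocytes (plus strand, chr17:88035319-88050446, ENSMUSG00000045394.8). Its TSS lay in no hotspot, but it was flanked by them. A Cyanase hotspot of 319 bp ended 97 bp upstream of the TSS. A region shared by Benzonase and Cyanase, from 454 to 1299 bp downstream, overlapped an exon, and it had 106 CpGs and 72.7% GC, the highest GC content of all 47 regions. DNase I had 0 hotspots in the window, the nearest lying 35.9 kb away.

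Spp1 encodes osteopontin, a secreted phosphoprotein made by cholangiocytes and by activated stellate cells and macrophages. None of the lists had a hotspot over any of its 6 coding TSSs (plus strand, chr5:104864137-104870069, ENSMUSG00000029304.8). DNase I alone marked the gene itself, from 1164 to 1984 bp downstream of the first TSS (chr5:104865301-104866121, 821 bp, 38.9% GC). The other 3 regions of the window held hotspots of all 3 nucleases. They lay 16.8 to 17.6 kb upstream, 11 to 11.6 kb downstream and 23.9 to 25.5 kb downstream of the first TSS, and the last of these covered a TSS of Pkd2.

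**Figure D2:**
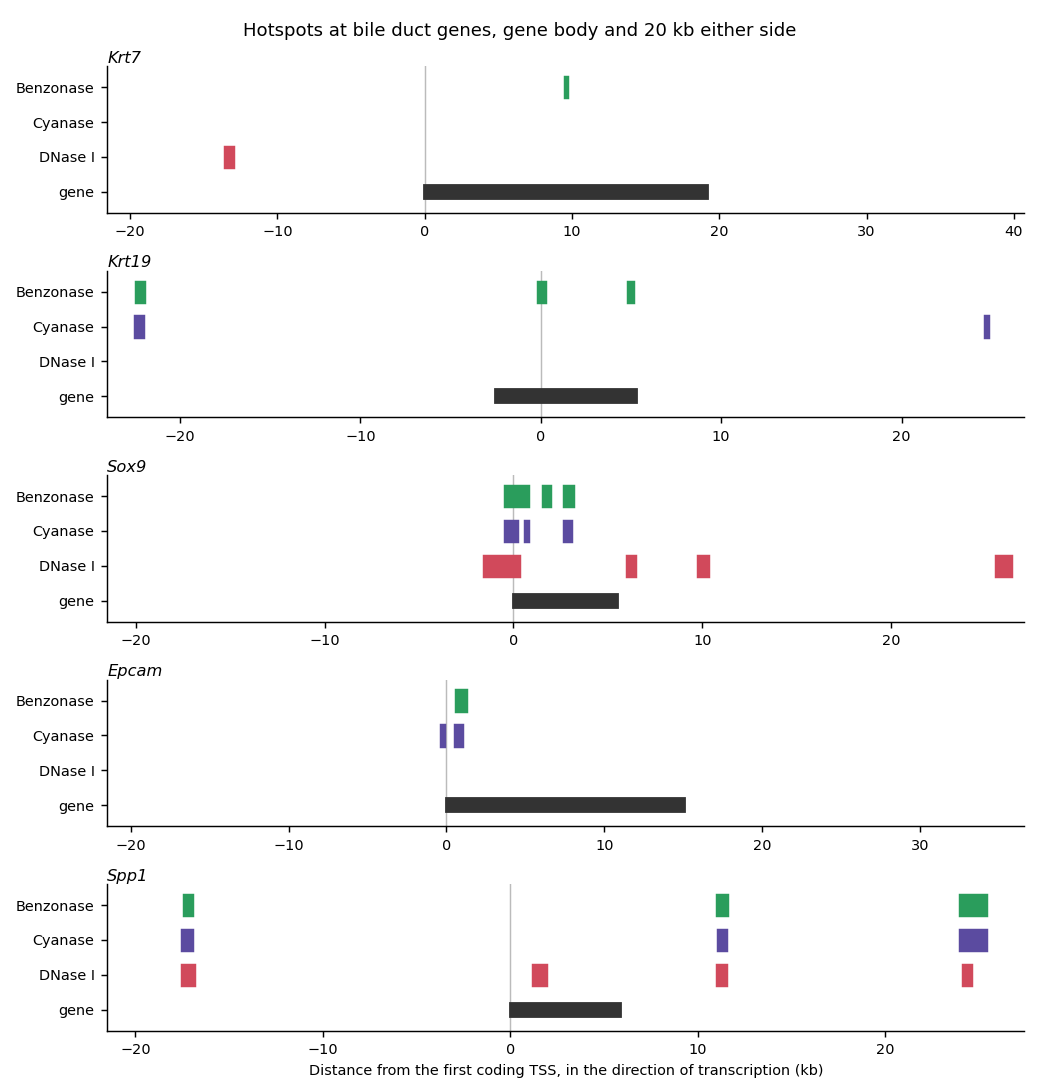
Hotspots of the 3 lists (coloured boxes, 1 row per nuclease) in the windows of the 5 bile duct genes. The x axis is the distance from the first coding TSS in kb, on a scale of its own for each gene, and the black bar is the gene, which at Krt19 begins before the coding TSS. Sox9 has boxes of all 3 nucleases on the TSS, Krt19 has a Benzonase box, and DNase I has no box at Krt19 or Epcam.

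Counted by group, a TSS lay in a Benzonase hotspot at 3 of 5 stellate and 2 of 5 duct genes, against 57.4% of all genes. For Cyanase the counts were 4 of 5 and 1 of 5, against 55.7%, and for DNase I 0 of 5 and 1 of 5, against 47.4%. The pattern of Lrat, Pdgfrb and Reln, with Benzonase and Cyanase but not DNase I at the TSS, was found at 3 of 5 stellate and 0 of 5 duct genes and at 8.81% of all genes. By CpG number of the promoter, its share of all genes was 2.24% with 0 to 3 CpGs and 8.61% with 4 to 9. It was 11.3% with 10 to 18 CpGs and 15.1% with 19 to 56. All 3 lists marked 46.1% of all genes and only Sox9 among the members. Benzonase alone, as at Krt19, marked 2.2% of all genes, Cyanase alone, as at Des, marked 0.747%, and no list marked 40.9%, as at Col1a1, Krt7, Epcam and Spp1. With 5 genes a group, these counts are a description and the difference between the groups was not tested.

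When a hotspot within 1 kb of a TSS was enough, a rule chosen after the positions were seen, the stellate counts were 4 for Benzonase, 5 for Cyanase and 1 (Reln) for DNase I. The duct counts were 3, 2 and 2 in the same order, with Epcam added for both frozen-tissue enzymes and Spp1, by a coding TSS inside the gene, for DNase I. Over all genes this rule gave 61.1% for Benzonase, 59.4% for Cyanase and 51.8% for DNase I.

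Further genes of both cell types were scored in the same way. Of 19 further stellate genes, 9 had a TSS in a Benzonase hotspot, 13 in a Cyanase hotspot and 4 in a DNase I hotspot, beside 57.4%, 55.7% and 47.4% of all genes. Benzonase and Cyanase without DNase I marked 6 of them, beside 8.81% of all genes. The 6 were Col1a2 (a type I collagen chain), Hand2 and Lhx2 (transcription factors of stellate cells), Colec11, Ecm1 and Sparc. Cyanase alone marked Gfap, Rgs5 and Cygb, beside 0.747% of all genes, and Cyanase with DNase I marked Dcn (decorin). All 3 lists marked Vim (vimentin), Hgf (hepatocyte growth factor) and Pdgfra, beside 46.1% of all genes. No list marked Col3a1, Acta2, Ngfr, Timp1, Tagln and Nes, beside 40.9% of all genes.

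Of 18 further bile duct genes, 12 had a TSS in a Benzonase hotspot, 11 in a Cyanase and 11 in a DNase I hotspot. Over all genes, Benzonase marked 57.4%, Cyanase 55.7% and DNase I 47.4%. At the 5 duct members the counts were 2, 1 and 1 in the same order. The counts at the 18 further genes are a description, and their distance from the shares of all genes was not tested. All 3 lists marked the same 11 genes, beside 46.1% of all genes. Among the 11 were Krt8, Krt18, Krt23 and Cdh1 (E-cadherin). Benzonase alone marked Bicc1, beside 2.2% of all genes. No list marked Cftr (the chloride channel), Sctr (the secretin receptor), Muc1, Prom1, Cd24a or Tspan8, beside 40.9% of all genes. Several of the marked genes, such as Krt8, Krt18 and Cdh1, are also used by hepatocytes, and the part of hepatocytes in these calls was not tested.

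With the members included, DNase I marked 4 of 24 stellate and 12 of 23 duct genes, whereas Cyanase marked 17 and 12 and Benzonase 12 and 14. The DNase I share was 16.7% at stellate genes and 52.2% at duct genes, the latter near the 47.4% of all genes. The Benzonase count at stellate genes was near the 57.4% of all genes, and Cyanase marked 55.7% of all genes. Benzonase and Cyanase without DNase I marked 9 of the 24 stellate genes (37.5%) and 0 of the 23 duct genes, against 8.81% of all genes, a background at which a count of 0 among so few duct genes is no result about them. With the narrow hotspots, those below the lower quartile of width, removed from each list there were 8 and 1 genes, against 9.82% of all genes, and with the 1 kb rule 7 and 1, against 8.35%. The 1 kb rule also raised the DNase I count at stellate genes to 8 of 24 (33.3%, against 51.8% of all genes). The number of stellate genes marked by all 3 lists rose from 3 to 7. Over all genes, the 3 lists together marked 10303 of 22365 before and 11177 with the 1 kb rule. Removal of the narrow hotspots lowered the Cyanase count at stellate genes from 17 to 12 of 24 and left 12 of 23 at duct genes. Over all genes, Cyanase marked 12467 of 22365 before and 12066 after this removal. Stellate genes marked by Cyanase alone fell from 4 to 1, beside 167 and 115 of all genes, so most of these calls rested on narrow hotspots. The stellate and duct genes were chosen with earlier results of the lists known, and the difference between the groups was not tested.

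**Figure D3:**
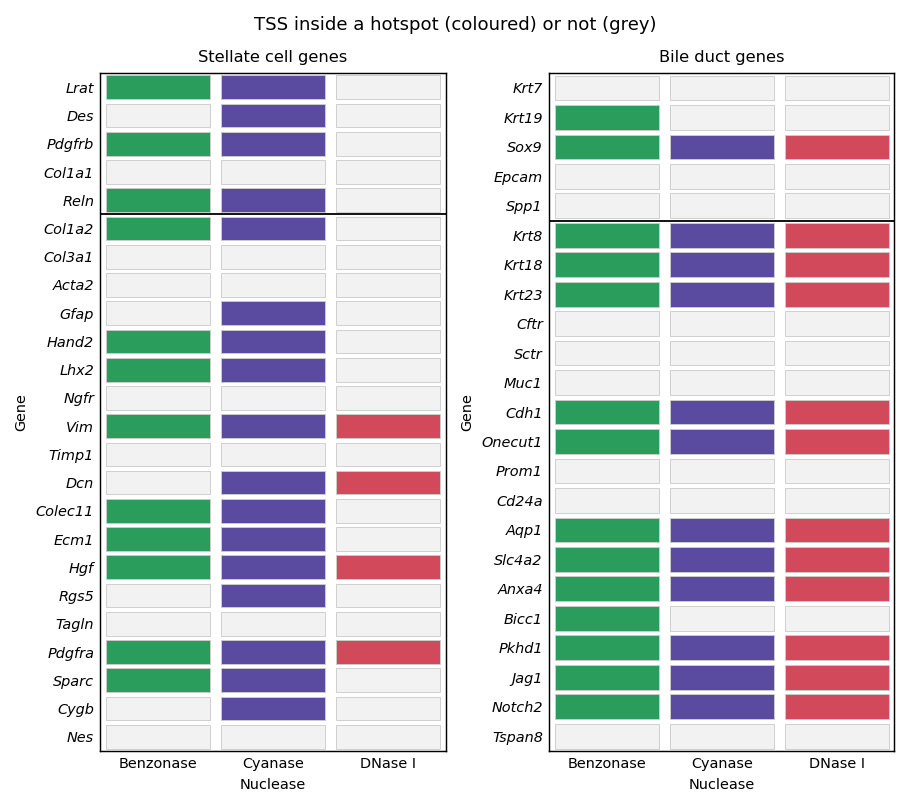
Calls at the TSSs of 24 stellate genes (left) and 23 bile duct genes (right), with the 5 members above the black line. Each row is a gene and each column a nuclease, and a coloured cell means that at least 1 coding TSS lay inside a hotspot. The DNase I column has 4 coloured cells on the left and 12 on the right, and 9 rows on the left and 0 on the right are coloured for Benzonase and Cyanase alone.

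Genes of the other sinusoidal cells were scored for comparison. Of 10 genes of Kupffer cells, the resident macrophages, DNase I marked the TSS of 8 (Clec4f, Cd5l, Cd68, Emr1, Csf1r, Marco, Lyz2 and Timd4), Benzonase 1 (Emr1) and Cyanase 1 (Clec4f). Of 10 genes of sinusoidal endothelial cells, Benzonase and Cyanase each marked 7 and DNase I 3. Benzonase and Cyanase without DNase I marked 4 of the 10 (Stab1, Kdr, Clec4g and Flt1). This pattern was found at 37.5% of the stellate genes and 8.81% of all genes, so it was not particular to stellate genes. Over all genes, DNase I marked 47.4%, Benzonase 57.4% and Cyanase 55.7%. Differences between cell types were not tested.

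Hotspot number was compared per length of window, because the windows ran from 45.5 kb (Sox9) to 500 kb (Reln). The density over the 5 stellate windows was 2.72 Benzonase, 2.17 Cyanase and 1.90 DNase I hotspots per 100 kb. Over the 5 duct windows it was 4.34, 3.94 and 3.55. The ratio of duct to stellate density was 1.60 for Benzonase (95% interval, Clopper-Pearson based, 0.691 to 3.50), 1.81 for Cyanase (0.736 to 4.25) and 1.87 for DNase I (0.713 to 4.63), so that each interval included 1. With the gene body alone, without the flanks, the ratio was 4.66 for Benzonase, and its interval of 1.61 to 12.1 did not include 1. These intervals take every hotspot as independent, which hotspots of 1 gene are not, so they are no test between the groups. For Cyanase it was 3.07 (interval 0.730 to 9.95). Reln made up 460 of the 537 kb of stellate gene body and held 8 of the 15 Benzonase hotspots there. In the gene bodies of the 4 other stellate genes, which ran from 8.25 to 39.9 kb, Benzonase had 7 hotspots. The 5 duct gene bodies, 53.7 kb in all, also held 7. A gene body ratio without Reln was not computed. The value over the windows rested on Reln for the frozen-tissue enzymes. Without it, the ratio was 0.932 for Benzonase and 0.932 for Cyanase, and 2.10 for DNase I (interval 0.585 to 9.31).

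The median over the 5 stellate genes was 3.89 Benzonase, 3.89 Cyanase and 1.95 DNase I hotspots per 100 kb. The median over the 5 duct genes was 6.27, 4.18 and 1.69. All genes had medians of 3.83, 3.61 and 4.24 in the same order. For DNase I, the median of the duct genes was thus lower than that of the stellate genes although the density over the windows was higher, with 4 DNase I hotspots each at Sox9 and Spp1, 1 at Krt7 and 0 at Krt19 and Epcam. The highest DNase I density of a stellate gene was 2.5, at Pdgfrb, and Sox9 and Spp1 had 8.78 and 8.71.

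Windows with no hotspot occurred for Benzonase at Des, for Cyanase at Krt7, and for DNase I at Des, Krt19 and Epcam. Over all genes, 17.8% had no Benzonase, 19.3% no Cyanase and 20.7% no DNase I hotspot in the window. Hepatocyte genes had medians of 22.9, 21.1 and 19.6 hotspots per 100 kb for Benzonase, Cyanase and DNase I, above every value of the members. Among single hepatocyte genes, Cps1 had 4.72 DNase I hotspots per 100 kb, below Sox9 and Spp1. The 10 genes of other tissues had medians of 3.62, 2.94 and 3.28 in the same order. Single genes of these tissues ran from 0 in each list (Gfra3) to 18.5, 18.5 and 13.9 (Sftpc, a lung gene), and Sftpc lay above every member. These differences were not tested.

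**Figure D4:**
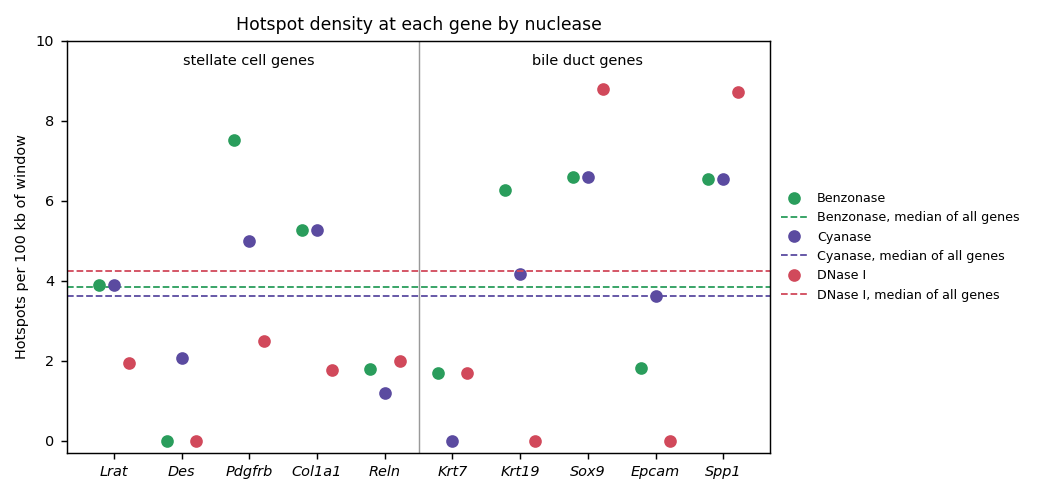
Hotspots per 100 kb of window (y axis) at each member (x axis), 1 point per nuclease, with stellate genes left and bile duct genes right of the grey line. Dashed lines are the medians over all 22365 genes. The DNase I points of all 5 stellate genes lie at 2.5 or less, under the DNase I line at 4.24, whereas those of the duct genes spread from 0 to 8.78.

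The hotspots of the 3 lists at the members merged into 29 regions at stellate and 18 at duct genes. Benzonase-Cyanase unique regions, which held no DNase I hotspot, made up 15 of 29 at stellate genes (51.7%, 95% Wilson interval 34.4 to 68.6) and 9 of 18 at duct genes (50%, interval 29.0 to 71.0), against 26.3% of all regions. Common regions, with DNase I and at least 1 of the other enzymes, made up 27.6% (interval 14.7 to 45.7) and 22.2% (interval 9.0 to 45.2), against 45.4%. DNase I unique regions made up 20.7% (interval 9.85 to 38.4) and 27.8% (interval 12.5 to 50.9), against 28.3%. The intervals of the stellate and duct shares overlapped in each class. Reln held 6 of the 8 common stellate regions, and without it 11 of 15 stellate regions (73.3%) were Benzonase-Cyanase unique and 13.3% common.

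By position, 0 of 11 DNase I unique regions covered a TSS of a member. DNase I alone marked the TSS of 0.867% of all genes, a share of genes and not of regions. Shares by position over all regions were not computed, so the counts by position are a description and the 0 is no result about the members. At stellate genes the DNase I unique regions lay in introns in 4 cases, over an exon in 1 and downstream in 1. At duct genes they lay downstream in 3, upstream in 1 and over an exon in 1. Benzonase-Cyanase unique regions covered a TSS at 3 stellate genes (Lrat, Des and Pdgfrb) and 1 duct gene (Krt19). Of the rest, 9 at stellate genes lay in introns and 3 upstream, while at duct genes 5 lay over exons, 2 upstream and 1 downstream.

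Mean GC content of the regions followed the classes in both groups. At stellate genes it was 42.7% (SD 3.86 across 6 regions) for DNase I unique, 52.3% (SD 9.90, 8 regions) for common and 56.6% (SD 5.28, 15 regions) for Benzonase-Cyanase unique regions. At duct genes it was 44.0% (SD 6.13, 5 regions), 51.8% (SD 10.5, 4 regions) and 60.1% (SD 5.95, 9 regions). Over all regions of the lists the means were 42.3, 49.5 and 54.7%. Of the members' regions, 23 of 24 Benzonase-Cyanase unique, 11 of 12 common and 6 of 11 DNase I unique regions had more GC than the 5 kb on either side. The same comparison was not made over all regions, so whether these counts differ from the usual shares is not known. Regions of 1 gene share their surroundings and are not independent, so no test was made.

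**Figure D5:**
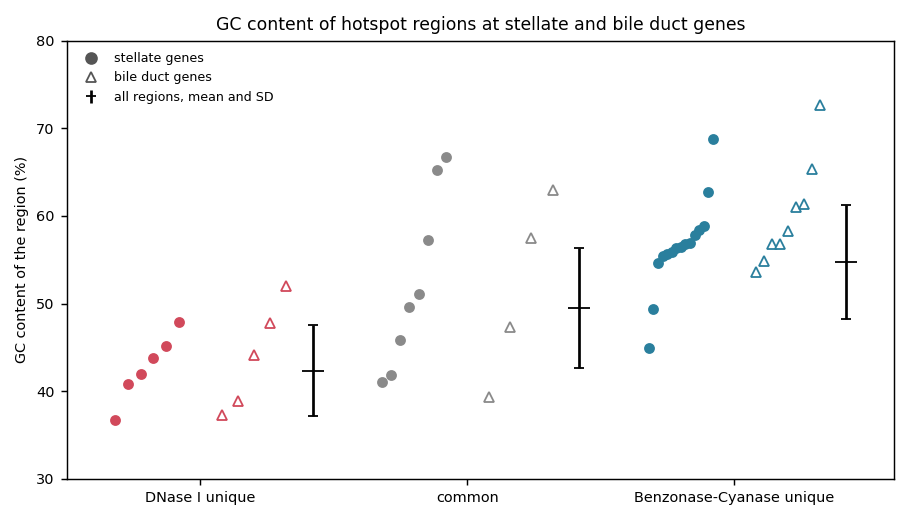
GC content (y axis, %) of each of the 47 merged regions at the members, by class (x axis), with filled circles for stellate and open triangles for bile duct genes. Points of a class are spread sideways in order of GC content, and the black bars give the mean and SD over all regions of that class. Of the 11 DNase I unique regions at the members, none lies above 52.1%, whereas Benzonase-Cyanase unique regions range from 44.9 to 72.7%.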

How the data were processed

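The authors named Eland and Bowtie as aligners, with mm9 as the genome. The headers of the deposited lists give libraries combined by nuclease and an FDR of 0%. The lists hold more hotspots than the study describes, and whether its tag density threshold was applied to them is not given in the sources used here. The deposited lists are described in their headers as input adjusted and unmerged, and hold chromosome, start and end of each hotspot. There were 0 columns of other samples. Versions of the aligners are not given in the sources used here.

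Positions were read as BED and printed counting from 1. Genes, TSSs of protein-coding transcripts and exons were taken from GENCODE release M1 on NCBIM37. In the Cyanase list, 2 hotspots ran past the end of their chromosome, and the excess was cut off for GC content. A gene was scored as marked when at least 1 coding TSS lay inside a hotspot. Hotspots overlapping by at least 1 bp were merged into regions. The first TSS is the outermost coding TSS. Common regions held DNase I and at least 1 other enzyme, a wider class than regions found by all 3 nucleases. The hotspot lists have no replicates, and no hypothesis test was run.

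The members, the further genes of each cell type and the rules were chosen with earlier results of these data known. All members were named, as were further genes by their pattern of calls and neighbours with a TSS in a hotspot. Some genes of the lists are not reported here. Alternatives were other flanks, midpoints, joining within 150 bp, a width filter, other TSS rules, a 50% overlap, bases covered, the central 150 bp, and leaving out Reln or hotspots at neighbouring TSSs. The 1 kb rule, the region classes and GC content without Reln, and the alternatives for the members and further genes together were added after seeing the data. Of the sequence around each TSS, the 250 bases before it were shown. Python 3.11.15, numpy 2.4.6, scipy 1.17.1, pysam 0.24.0 and matplotlib 3.10.9 were used. On simulated lists, 4000 of 4000 regions and 12000 of 12000 TSS calls were recovered.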

Additional observations from a re-analysis of the deposited data

How the results depend on the processing

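Of 97 values under alternatives, 86 stayed within the counting interval (shares and ratios), within 1 SD (GC content) or within 1.5 times (counts) of the value reported. With the gene body alone, the duct to stellate ratio for Benzonase was 4.66 (interval 1.61 to 12.1), with Reln making up 460 of 537 kb of stellate gene body. By the same rule, 75% of the duct regions were Benzonase-Cyanase unique. With a hotspot overlapping the 2 kb upstream of a TSS, DNase I marked 1 stellate gene (Reln) and Cyanase 2 duct genes (Sox9 and Epcam). With a hotspot within 1 kb of a TSS, DNase I marked 1 stellate and 2 duct genes and Cyanase 2 duct genes. Without Reln, the stellate shares were 13.3% common and 73.3% Benzonase-Cyanase unique, and the duct to stellate ratio fell below 1 for Benzonase and Cyanase, to 0.932 for both. Among 23 duct genes, Benzonase and Cyanase without DNase I marked 1 gene both without hotspots under the lower width quartile and with the 1 kb rule, against 0. The causes were not tested. The 15 alternatives for GC content stayed within 1 SD. Leaving out single libraries was not possible because each list comes from combined libraries, and a stricter threshold could not be set because they hold no score. No paired analysis was possible because there is 1 list per nuclease. With 5 genes and at most 10 hotspots a gene and list, a difference between stellate and duct genes of less than about the width of the intervals was not detectable.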
